A study of Mus musculus with 16 samples.

Results

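The dual-specificity MAP kinase phosphatases were followed in the ventricles of mice with a normal or a calpain-resistant junctophilin-2, with and without pressure overload. The members were taken by gene symbol: Dusp1, Dusp2, Dusp4, Dusp5, Dusp6, Dusp7, Dusp8, Dusp10, Dusp16 and Dusp26. All 10 were found among the 24421 entries of the count table, each on 1 entry, and 9 of them passed the filter on low counts, as did 13522 entries in all. Dusp26 did not pass and is given as counts.

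MAP kinases (ERK, JNK and p38) carry growth and stress signals from the cell surface to the nucleus, and are switched on by phosphorylation of a threonine and a tyrosine close together in the activation loop. The phosphatases described here remove both phosphates, and several of their genes are themselves switched on by the pathway that they shut off, which makes them negative feedback genes. In the heart, ERK, JNK and p38 are activated by pressure overload and have been studied as regulators of hypertrophy. The family is usually divided into inducible nuclear enzymes (Dusp1, Dusp2, Dusp4, Dusp5), cytoplasmic enzymes that prefer ERK (Dusp6, Dusp7) and enzymes that prefer JNK and p38 (Dusp8, Dusp10, Dusp16). Dusp26 is an atypical member that lacks the kinase-docking domain of the others.

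The mice were C57BL/6N, labelled male, and either wildtype (WT) or homozygous for JP2CR, a knock-in deletion of codons 563 to 568 of Jph2 at a calpain cleavage site. Its product, junctophilin-2, ties the transverse tubules of heart muscle cells to the calcium store. At an age of 9 to 10 weeks the mice had a sham operation or transverse aortic constriction (TAC), a narrowing of the aorta that raises the pressure against which the heart pumps, and tissue was collected after 5 weeks. There were 4 libraries of polyadenylated RNA in each of the groups WT sham, WT TAC, JP2CR sham and JP2CR TAC. The allele is in every cell from birth, and gene-level counts do not show whether the deleted codons are present. Ventricle is a mixture of cells, so fewer cells of a type and less RNA per cell cannot be told apart in any value below.

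The libraries held 9966782 to 16609732 counts, so that 3 counts, taken here as the floor of detection, were worth 0.185 to 0.314 CPM (counts scaled to a common library total). Cardiomyocyte markers were abundant in every library, and their summed level was 94300 to 98900 CPM in WT sham against 77200 to 83400 in WT TAC, and 88800 to 113000 in JP2CR sham against 76500 to 81700 in JP2CR TAC. Summed macrophage markers were 255 to 280 CPM in WT sham, 330 to 348 in WT TAC, 261 to 324 in JP2CR sham and 369 to 430 in JP2CR TAC. Smooth muscle and pericyte markers were 1160 to 1490, 848 to 1110, 1350 to 1430 and 937 to 1120 CPM in the same order. Nerve and Schwann cell markers were 31 to 39.2, 9.55 to 12.7, 24.3 to 35.1 and 13.6 to 20 CPM, and neutrophil markers 2.36 to 3.36, 4.05 to 9.92, 2.22 to 3.11 and 5.21 to 17.4 CPM. All 10 cardiomyocyte, all 10 macrophage and all 9 smooth muscle and pericyte markers had counts in each group. These lists moved with TAC, and their part in the TAC results below was not tested. JP2CR sham replicates 3 and 4 had 189 and 196 CPM of Xist and 0 CPM of 4 Y-linked genes, against their male label, and JP2CR TAC replicate 4 had both (141 CPM of Xist, 118 CPM Y-linked). In WT TAC and JP2CR TAC, replicate 3 lay between replicates 1 and 2 in 98.4% and 97.6% of 575 and 505 genes. These were the genes above a mean log2 CPM of 3 that differed by more than 0.5 in log2 CPM between replicates 1 and 2. The same held for WT sham replicates 3 and 4 in 95.9% and 94.5% of 145 such genes and for WT TAC replicate 4 in 89.2%, so the trait is not limited to the TAC libraries named here. The share was 72.9% for JP2CR TAC replicate 4, and 44.1% and 40.7% of 59 such genes for JP2CR sham replicates 3 and 4. Picking genes by a difference between replicates 1 and 2 makes it easier for other libraries to lie between them. Whether such libraries came from separate animals was not tested. The libraries with Xist counts, and replicate 3 of each TAC group, are called the 3 Xist libraries and the intermediate TAC libraries below. Some results are also given without those libraries. The other results, among them the list counts and the correlations, are given over all libraries only.

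Promoters of 8 of the 10 members were read from RefSeq (GRCm38.p6) over 250 bases before to 50 bases after 1 RefSeq start site each. They were searched on both strands for the cyclic AMP response element TGACGTCA, the AP-1 site TGANTCA, the CArG box of serum response factor and the ETS site CCGGAAGT, of which no spelling holds another. The promoters of Dusp1, Dusp8 and Dusp5 are shown because they were the members with a match, and that of Dusp6 because this ERK-preferring member had the largest rise after TAC in JP2CR among those with a promoter sequence. Capitals mark the matches, and each sequence is written 5′ to 3′ on the strand of its gene.
Dusp1: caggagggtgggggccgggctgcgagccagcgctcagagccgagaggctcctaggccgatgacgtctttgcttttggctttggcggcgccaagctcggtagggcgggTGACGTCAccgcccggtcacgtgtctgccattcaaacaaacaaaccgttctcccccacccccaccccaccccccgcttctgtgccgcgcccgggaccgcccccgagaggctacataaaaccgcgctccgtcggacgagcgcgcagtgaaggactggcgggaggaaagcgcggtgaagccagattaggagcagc
Dusp8: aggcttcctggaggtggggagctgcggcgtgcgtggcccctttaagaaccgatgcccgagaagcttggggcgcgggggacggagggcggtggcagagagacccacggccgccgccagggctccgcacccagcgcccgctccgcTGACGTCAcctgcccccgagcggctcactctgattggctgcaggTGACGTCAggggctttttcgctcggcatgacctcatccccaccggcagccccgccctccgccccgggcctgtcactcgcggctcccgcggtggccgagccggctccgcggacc
Dusp5: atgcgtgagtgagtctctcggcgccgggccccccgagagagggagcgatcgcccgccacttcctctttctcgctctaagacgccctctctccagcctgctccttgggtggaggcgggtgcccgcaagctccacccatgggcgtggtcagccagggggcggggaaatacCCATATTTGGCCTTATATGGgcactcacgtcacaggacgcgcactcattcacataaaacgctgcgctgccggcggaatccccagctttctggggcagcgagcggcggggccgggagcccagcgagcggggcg
Dusp6: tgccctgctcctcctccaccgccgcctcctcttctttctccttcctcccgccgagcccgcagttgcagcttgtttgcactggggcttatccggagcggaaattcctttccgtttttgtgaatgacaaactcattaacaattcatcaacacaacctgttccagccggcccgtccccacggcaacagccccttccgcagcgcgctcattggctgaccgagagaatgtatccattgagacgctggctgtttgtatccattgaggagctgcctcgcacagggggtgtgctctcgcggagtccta
The Dusp1 window (chr17:26508423-26508722, minus strand) held 1 cyclic AMP response element, 143 bases upstream of the start. The Dusp8 window (chr7:142095235-142095534, minus strand) held 2, at 107 and 63 bases upstream. In the Dusp5 window (chr19:53528895-53529194, plus strand), 2 CArG boxes stood back to back at 82 and 72 bases upstream. The Dusp6 window (chr10:99262981-99263280, plus strand) held none of these spellings. Over 32817 promoter windows of the same length, 1.79% held the cyclic AMP response element, 1.63% a CArG box, 7.81% the AP-1 site and 3.89% the ETS site, and none of the 8 member windows held the last 2. Starts are those of RefSeq, and the windows of Dusp1, Dusp8 and Dusp10 lie inside the gene spans given below. A match is a description of the letters and was not tied to any factor in these data.

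Per length of the annotated exons, Dusp1 was the most abundant member in WT sham, with 31.5 ± 1.38 CPM per kb (SD, n = 4). Dusp7 followed with 18.6 ± 1.1, Dusp8 with 13.1 ± 0.961 and Dusp6 with 9.00 ± 0.531 CPM per kb. Dusp16 (4.69 ± 0.171) and Dusp10 (4.08 ± 0.358) stood close together and their libraries overlapped. At the low end were Dusp5 (1.62 ± 0.216), Dusp4 (1.05 ± 0.164), Dusp2 (0.330 ± 0.0561) and Dusp26 (0.288 ± 0.0545 CPM per kb), the last 2 overlapping. The order differed little among groups. Dusp8 stood above Dusp7 in WT TAC (15.4 ± 0.896 against 13.1 ± 1.56 CPM per kb, with overlap), and Dusp4 above Dusp5 in JP2CR TAC (1.53 ± 0.285 against 1.25 ± 0.230, with overlap). Dusp26 stood above Dusp2 in JP2CR sham (0.250 ± 0.109 against 0.228 ± 0.149, with overlap). Dusp1 led in all 4 group means, but in JP2CR sham its 19.3 ± 2.42 CPM per kb overlapped the 17.6 ± 4.62 of Dusp7. The same held in JP2CR TAC, with 15.8 to 37.7 CPM per kb for Dusp1 and 15.5 to 17.9 for Dusp7.

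**Figure D1:**
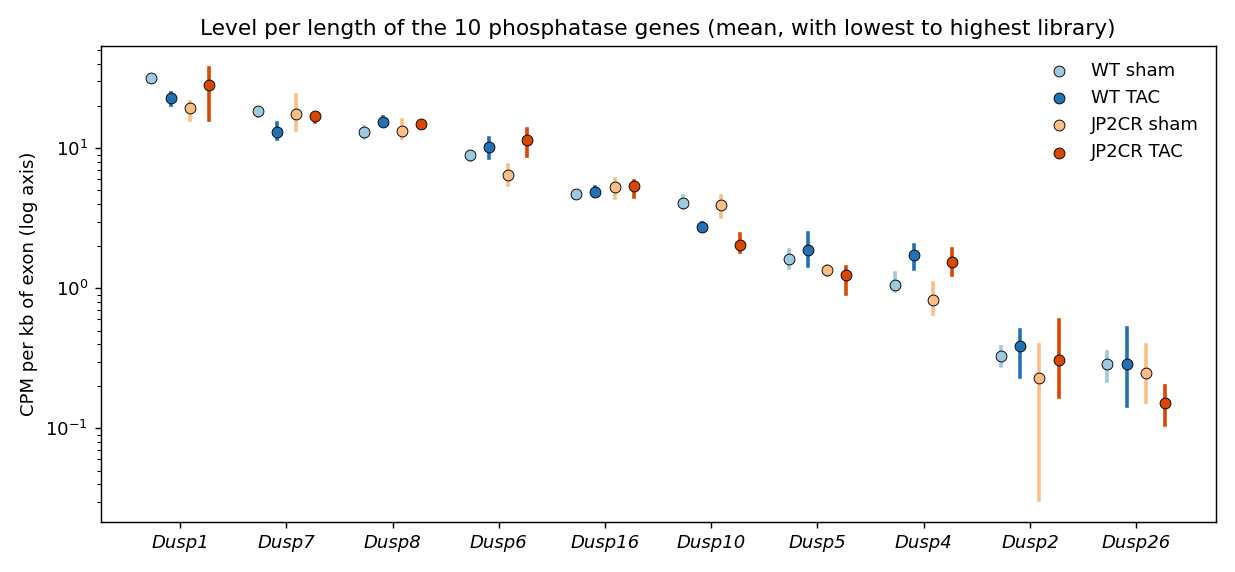
Mean CPM per kilobase of annotated exon (log axis) for the 10 phosphatase genes in the 4 groups, with bars from the lowest to the highest of 4 libraries. Dusp1 has the highest mean in every group, and Dusp2 and Dusp26 lie below 1 CPM per kb throughout.

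After TAC, the phosphatases did not move as a block. In WT hearts Dusp4 and Dusp8 rose and Dusp1, Dusp7 and Dusp10 fell, which is 2 of 9 tested members higher and 3 lower, where 41.9% of all tested genes were called (21.1% higher and 20.8% lower). In JP2CR hearts Dusp1, Dusp4 and Dusp6 rose and Dusp10 fell, 3 higher and 1 lower, against 41.5% of all tested genes (20.7% in each direction). Both counts are near the share called among all genes. The libraries of 5 members did not overlap between sham and TAC in WT and those of 3 in JP2CR, as in 42% and 34.1% of all tested genes. The median log2 fold change over the 9 members was 0.19 in WT and 0.15 in JP2CR, with 0.00 over all tested genes in each. A gene was called at a Benjamini-Hochberg adjusted p under 0.05 in edgeR's quasi-likelihood test, and changes are given as log2 fold changes ± SE.

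**Figure D2:**
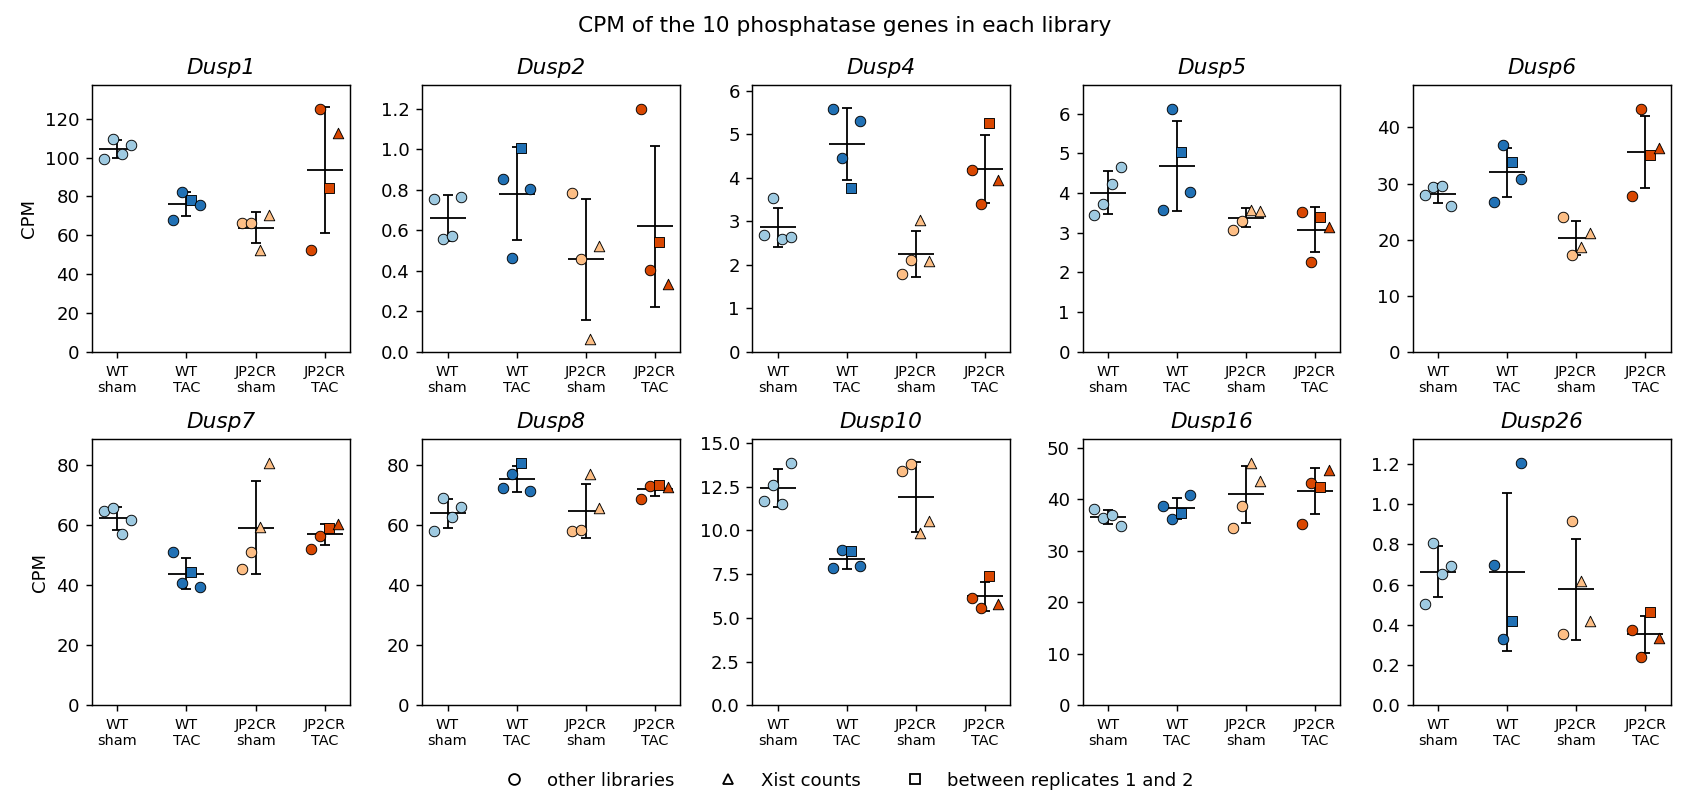
CPM of each of the 10 phosphatase genes in each of the 16 libraries, with the group mean and SD (n = 4); triangles are the 3 libraries with Xist counts and squares the 2 TAC libraries that lie between replicates 1 and 2. Dusp10 is lower in all TAC libraries than in all sham libraries of the same genotype, and Dusp1 spreads from 52.5 to 125 CPM in JP2CR TAC.

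Among the inducible nuclear enzymes, Dusp1 (chr17:26505590-26562128, minus strand), the immediate-early phosphatase of p38 and JNK, overlaps Ergic1 on the opposite strand. It was the only member called in opposite directions in the 2 genotypes. Its level was 99.4, 109.5, 102 and 106 CPM in WT sham and 67.6, 82.3, 78.0 and 75.6 CPM in WT TAC. All WT TAC libraries lay below all WT sham libraries. The JP2CR sham libraries had 66.4, 66.2, 52.2 and 70.5 CPM, and the JP2CR TAC libraries 52.5, 125, 84.4 and 113 CPM. In JP2CR TAC, replicate 1 was as low as the lowest sham library and the other 3 were above every JP2CR sham library. The TAC effect was -0.46 ± 0.18 in WT (75.9 ± 6.14 against 104 ± 4.57 CPM, SD, n = 4, adjusted p = 0.0439) and 0.56 ± 0.18 in JP2CR (93.6 ± 32.3 against 63.8 ± 8.0 CPM, adjusted p = 0.0179). Neither call was stable. In WT, the fall had an adjusted p of 3.61e-05 in a fit of the WT groups alone (-0.45 ± 0.06), of 0.0624 in DESeq2 and of 0.0825 without the intermediate TAC libraries. Leaving out any 1 WT library also ended it (adjusted p 0.0533 to 0.105), as did leaving out JP2CR sham replicate 1 or JP2CR TAC replicate 3 (0.0502 and 0.0509). In JP2CR, leaving out the 3 Xist libraries gave 0.40 ± 0.22 (adjusted p = 0.169), and leaving out JP2CR TAC replicate 1 gave 0.76 ± 0.11 (adjusted p = 7.65e-05). The rise was not called without JP2CR TAC replicate 2 (0.39), JP2CR TAC replicate 4 (0.45) or JP2CR sham replicate 3 (0.47), with adjusted p of 0.083, 0.0624 and 0.0508, nor with the JP2CR groups fitted alone (0.0781). In the authors' deposited table, Dusp1 stands at -0.45 (adjusted p = 2.61e-10) for TAC in WT. For TAC in JP2CR the authors' deposited table lists 0.46 with an adjusted p of 0.115.

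JP2CR TAC replicate 1 also stood apart in markers of blood-borne cells. Summed neutrophil markers were 17.4 CPM there and 5.21 to 10.3 in the other JP2CR TAC libraries, and summed B and plasma cell markers were 83 CPM against 8.56 to 41. Of 36 tested early response genes, which are induced within minutes to hours of a stimulus, 27 had their lowest JP2CR TAC value in that library and 26 their highest in replicate 2, where 29.9% and 26.1% of all tested genes did. Other groups held such libraries too: JP2CR sham replicate 3 was highest of its group in 24 of the 36 and replicate 4 lowest in 18 (28.2% and 24.4% of all genes), and WT TAC replicate 2 was highest in 18 and replicate 1 lowest in 17 (27.2% and 30.1%). The part of these in the Dusp1 values was not tested.

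Dusp4 (chr8:34807297-34819894, plus strand), a nuclear phosphatase of ERK and JNK, rose in both genotypes. The WT sham libraries had 2.69, 3.54, 2.61 and 2.63 CPM and the WT TAC libraries 5.58, 4.45, 3.77 and 5.30. In JP2CR the sham libraries had 1.78, 2.10, 3.02 and 2.09 CPM and the TAC libraries 4.19, 3.39, 5.25 and 3.94. In each genotype the lowest TAC library was above the highest sham library. The effect was 0.73 ± 0.19 in WT (1.65-fold, adjusted p = 0.00467) and 0.88 ± 0.20 in JP2CR (1.84-fold, adjusted p = 0.00183). Both calls held in all 28 alternative analyses, which included leaving out each library.

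Dusp5 (chr19:53529109-53542431, plus strand), a nuclear phosphatase specific for ERK, was not called after TAC. It had 3.44 to 4.64 CPM in WT sham, 3.56 to 6.11 in WT TAC, 3.07 to 3.58 in JP2CR sham and 2.26 to 3.52 in JP2CR TAC. The groups overlapped in both genotypes, with TAC effects of 0.23 ± 0.17 in WT (95% interval -0.14 to 0.59, adjusted p = 0.319) and -0.13 ± 0.19 in JP2CR (-0.52 to 0.27, adjusted p = 0.623). Dusp2 (chr2:127336159-127338376, plus strand), best known from activated immune cells, was counted 1 to 16 times per library, and the single count of JP2CR sham replicate 3 was below the floor. Its TAC effects of 0.22 ± 0.46 in WT and 0.48 ± 0.52 in JP2CR (adjusted p = 0.735 and 0.491) had intervals from -0.75 to 1.19 and from -0.61 to 1.57, so no change of Dusp2 was detectable at this depth.

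Of the cytoplasmic ERK-preferring enzymes, Dusp6 (chr10:99263231-99267489, plus strand), a transcriptional target of ERK signalling that feeds back on it, rose in JP2CR. The JP2CR sham libraries had 24.0, 17.2, 18.7 and 21.2 CPM and the JP2CR TAC libraries 27.8, 43.2, 35.1 and 36.4 CPM. No TAC library overlapped the sham libraries. The rise was 0.81 ± 0.13, or 1.75-fold (35.6 ± 6.34 against 20.3 ± 2.96 CPM, SD, n = 4, adjusted p = 7.48e-05), and it remained called in all 28 alternatives, with a log2 fold change of 0.77 without the 3 Xist libraries. In WT the libraries overlapped, with 27.9, 29.4, 29.5 and 25.9 CPM in sham and 26.7, 36.9, 33.8 and 30.8 CPM in TAC. The WT effect of 0.19 ± 0.12 (95% interval -0.07 to 0.45) was not called (adjusted p = 0.244).

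Dusp7 (chr9:106368632-106375724, plus strand), the close relative of Dusp6, fell in WT and was not called in JP2CR. Its WT sham libraries had 64.7, 65.6, 57.2 and 61.6 CPM and its WT TAC libraries 51.0, 40.8, 44.6 and 39.3 CPM. All WT TAC libraries were below all WT sham libraries, a change of -0.51 ± 0.13 (1.42-fold lower, adjusted p = 0.0044) that held in all 28 alternatives. JP2CR sham was the widest group, with 45.4, 51.0, 59.5 and 80.7 CPM, and the JP2CR TAC libraries had 52.2, 56.5, 58.9 and 60.2 CPM. The 2 high sham libraries were the ones with Xist counts and no Y-linked counts. Replicate 4, the highest, had 359 CPM of summed atrial markers, where the other JP2CR sham libraries had 2490 to 6270. The JP2CR effect was -0.05 ± 0.13 (adjusted p = 0.796) over all libraries and 0.22 ± 0.10 (adjusted p = 0.105) without the 3 Xist libraries.

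Of the enzymes that prefer JNK and p38, Dusp10 (chr1:184013302-184075636, plus strand) fell in both genotypes. WT sham libraries had 11.7, 12.6, 11.5 and 13.9 CPM and WT TAC libraries 7.83, 8.90, 8.80 and 7.95 CPM. JP2CR sham libraries had 13.4, 13.8, 9.87 and 10.6 CPM and JP2CR TAC libraries 6.14, 5.57, 7.41 and 5.82 CPM. No sham and TAC libraries of a genotype overlapped. The changes were -0.57 ± 0.12 in WT (1.48-fold lower, adjusted p = 0.00106) and -0.93 ± 0.13 in JP2CR (1.91-fold lower, adjusted p = 1.74e-05), and both held in all 28 alternatives. The gene 1700056E22Rik overlaps Dusp10 on the opposite strand, and the strand setting of the counting is not given in the sources used here.

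Dusp8 (chr7:142079490-142095843, minus strand), a JNK and p38 phosphatase known from brain and heart, rose in WT by a small amount. Its WT sham libraries had 57.9, 68.9, 62.6 and 65.8 CPM and its WT TAC libraries 72.1, 76.8, 80.6 and 71.2 CPM, without overlap. The change was 0.24 ± 0.08 (1.18-fold, adjusted p = 0.0244), and it was no longer called without the intermediate TAC libraries (0.20 ± 0.09, adjusted p = 0.0923), nor when WT sham replicate 1 or 3 or WT TAC replicate 2 or 3 was left out alone. In JP2CR the sham libraries had 57.8, 58.2, 76.9 and 65.6 CPM and the TAC libraries 68.6, 72.8, 73.3 and 72.7 CPM. The highest library of both groups was JP2CR sham replicate 3, with Xist counts. The JP2CR effect was 0.15 ± 0.08 over all libraries (adjusted p = 0.144) and 0.31 ± 0.08 (adjusted p = 0.0054) without the 3 Xist libraries. Without JP2CR sham replicate 3 alone it was 0.25 ± 0.07 (adjusted p = 0.00623).

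Dusp16 (chr6:134715468-134792625, minus strand), a JNK-preferring phosphatase, had 34.9 to 38.1 CPM in WT sham, 36.2 to 40.9 in WT TAC, 34.4 to 47.1 in JP2CR sham and 35.2 to 45.7 in JP2CR TAC. Its groups overlapped in both genotypes. The TAC effects of 0.07 ± 0.09 (95% interval -0.12 to 0.25) in WT and 0.02 ± 0.09 (-0.16 to 0.21) in JP2CR were not called (adjusted p = 0.594 and 0.859). Dusp26 (chr8:31089471-31097047, plus strand), for which a role in neural cells has been described, was counted 3 to 15 times per library and its groups overlapped. Its means were 0.664, 0.663, 0.577 and 0.353 CPM in WT sham, WT TAC, JP2CR sham and JP2CR TAC.

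The TAC effect was then compared between the genotypes through the interaction term, which asks whether JP2CR hearts responded differently from WT hearts. None of the 9 tested members was called by edgeR, where 0.118% of all tested genes were, while 3 had an unadjusted p under 0.05 (10.3% of all tested genes). The largest member difference was that of Dusp1, 1.02 ± 0.25 (95% interval 0.49 to 1.54, adjusted p = 0.113). In WT no TAC library was above the sham mean of Dusp1, and in JP2CR 3 of 4 were. The Dusp1 difference was called in DESeq2 (adjusted p = 0.0495) and without JP2CR TAC replicate 1 (1.21 ± 0.16, adjusted p = 0.00113). It was not called without the 3 Xist libraries (0.86 ± 0.27, adjusted p = 0.108) or without the intermediate TAC libraries (1.07 ± 0.28, adjusted p = 0.304). DESeq2 called 0.976% of all tested genes, the fit without JP2CR TAC replicate 1 0.471% and that without the 3 Xist libraries 2.71%. Dusp6 differed by 0.62 ± 0.18 (0.25 to 1.0, adjusted p = 0.168), with 3 of 4 WT and 4 of 4 JP2CR TAC libraries above their sham mean. The interaction is also the genotype difference after TAC minus that in sham. For Dusp1, JP2CR minus WT was 0.30 ± 0.18 after TAC (adjusted p = 0.514) and -0.71 ± 0.18 in sham. For Dusp6 it was 0.15 ± 0.12 after TAC (adjusted p = 0.68) and -0.47 ± 0.13 in sham. After TAC the libraries of the genotypes overlapped in both genes. Dusp7 differed by 0.46 ± 0.18 (0.07 to 0.84, adjusted p = 0.37) and by 0.73 ± 0.13 (adjusted p = 0.00639) without the 3 Xist libraries. Without JP2CR sham replicate 4 alone, the Dusp7 difference was 0.65 (adjusted p = 0.0404). Without the 3 Xist and the intermediate TAC libraries together it was 0.69 ± 0.15 and not called (adjusted p = 0.0592). The former fit called 0.389% of all tested genes and the latter 0.43%. Dusp10 differed by -0.36 ± 0.17 (-0.73 to 0.00, adjusted p = 0.491).

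**Figure D3:**
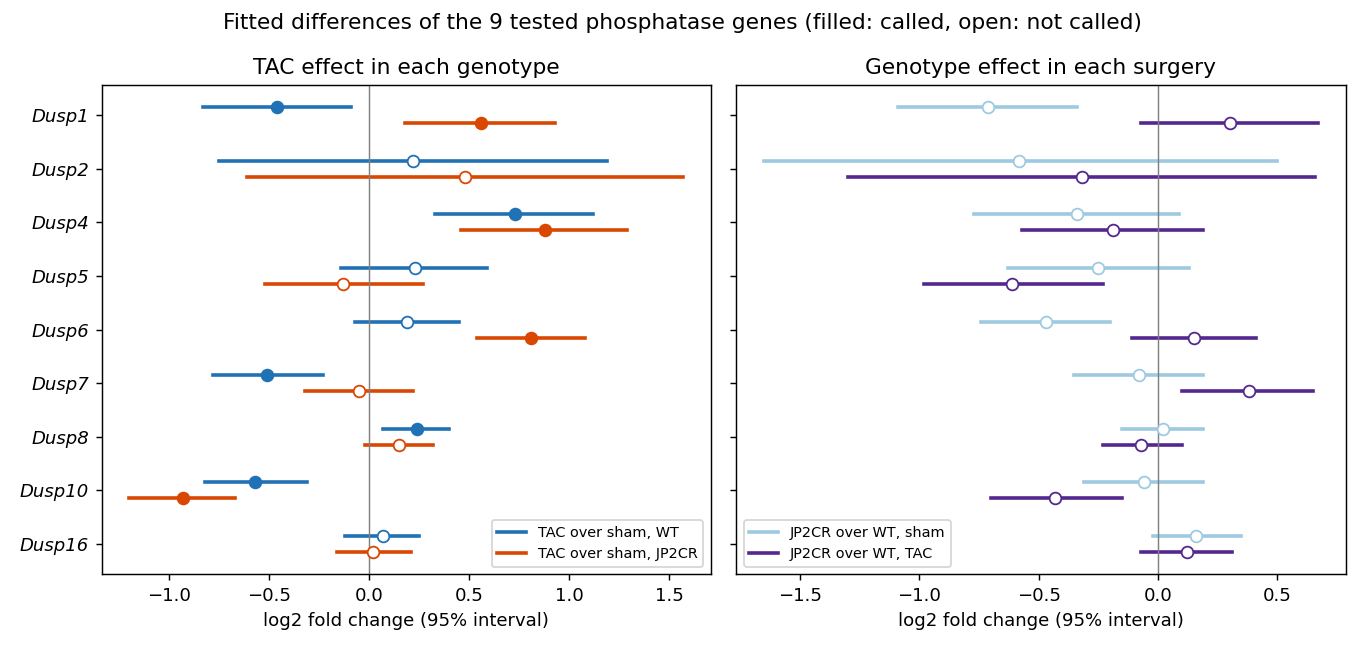
Log2 fold changes of the 9 tested phosphatase genes with 95% intervals for TAC over sham in each genotype (left) and for JP2CR over WT within each surgery (right); filled points passed an adjusted p of 0.05 in edgeR's quasi-likelihood test. In the left panel Dusp4 lies above 0 and Dusp10 below 0 in both genotypes, and in the right panel no point is filled.

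In the sham-operated hearts, JP2CR was compared with WT without pressure overload. None of the 9 tested members was called by edgeR (0.0961% of all tested genes were), and 2 had an unadjusted p under 0.05 (7.97% of all). Those were Dusp1 and Dusp6, whose libraries did not overlap between the genotypes, as in 4.76% of all tested genes. Dusp1 was at 63.8 ± 8.0 CPM in JP2CR sham and 104 ± 4.57 in WT sham (-0.71 ± 0.18, 95% interval -1.09 to -0.34, adjusted p = 0.179). Dusp6 was at 20.3 ± 2.96 and 28.2 ± 1.66 CPM (-0.47 ± 0.13, -0.74 to -0.20, adjusted p = 0.267), and its difference was -0.44 ± 0.17 without the 3 Xist libraries (adjusted p = 0.327). The spread of Dusp1 in the fit over all groups includes JP2CR TAC, where its SD was 32.3 CPM. In a fit of the sham groups alone the Dusp1 difference was -0.71 ± 0.09 and was called (adjusted p = 0.011). It was also called without JP2CR TAC replicate 1 (adjusted p = 0.00582). The former fit called 0.084% of all tested genes and the latter 0.199%. With the 3 Xist libraries left out, which leaves 2 JP2CR sham libraries, the Dusp1 difference was -0.66 ± 0.21 (adjusted p = 0.195). The authors' deposited table lists Dusp1 at -0.56 with an adjusted p of 8.51e-11 in this comparison. For Dusp6 the authors' deposited table lists -0.34 with an adjusted p of 0.0108.

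After TAC, JP2CR and WT were compared in the same way, and none of the 9 members was called (0.651% of all tested genes were), with 3 at an unadjusted p under 0.05 (12.9% of all). In these 3 the libraries did not overlap, as in 8.09% of all tested genes. Dusp5 was at 3.08 ± 0.569 CPM in JP2CR TAC and 4.68 ± 1.1 in WT TAC (-0.61 ± 0.18, adjusted p = 0.133). Dusp10 was at 6.23 ± 0.821 and 8.37 ± 0.558 CPM (-0.43 ± 0.13, adjusted p = 0.141). Dusp7 was at 56.9 ± 3.55 and 43.9 ± 5.23 CPM (0.38 ± 0.13, adjusted p = 0.206), and was called without the 3 Xist libraries (0.35 ± 0.08, adjusted p = 0.0347) and without JP2CR sham replicate 4 (0.38 ± 0.09, adjusted p = 0.0499), but not without the 3 Xist and the intermediate TAC libraries together (0.32 ± 0.11, adjusted p = 0.306). Of all tested genes, 2.75% were called in this comparison without the 3 Xist libraries and 1.06% without JP2CR sham replicate 4. Each group enters 2 of the TAC and genotype comparisons as treated or control, so their values share libraries.

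The genes whose levels were most like those of a called member over the 16 libraries were taken from 11675 genes. These correlations are descriptions over libraries that share group differences, and the correlation of deviations from group means is given beside each. Genes were picked on these same libraries, so changes and library values that they share with the member are built into the choice. For Dusp1 they were Errfi1, a feedback inhibitor of the EGF receptor (r = 0.93, 0.97 for deviations), Zfp36, which speeds decay of AU-rich mRNAs (0.89, 0.90), and Sik1, a salt-inducible kinase (0.89, 0.90). Sik1 was the only one of these called in each of 3 comparisons: it fell in WT TAC (-0.50 ± 0.17, adjusted p = 0.022), rose in JP2CR TAC (0.59 ± 0.17, adjusted p = 0.0107) and was lower in JP2CR sham than in WT sham (-1.14 ± 0.17, adjusted p = 0.0122). In JP2CR TAC replicate 1, Errfi1 was at 22.5, Zfp36 at 26.6 and Sik1 at 37.9 CPM, and in replicate 2 they were at 60.3, 81.6 and 92.8 CPM. The low and the high library of Dusp1 in that group were low and high in these genes too, but the genes were picked for such likeness, so this is no separate result. For Dusp6 they were Spry1, another feedback inhibitor of ERK signalling (0.89, 0.68), the AP-1 subunit Junb (0.89, 0.63) and the proteasome assembly factor Pomp (0.88, 0.69). Spry1 rose in JP2CR TAC by 0.86 ± 0.15 (adjusted p = 0.00015) and Junb by 1.89 ± 0.26 (adjusted p = 2.12e-05), and neither was called in WT (0.29 ± 0.14 and 0.40 ± 0.25, adjusted p = 0.115 and 0.217).

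**Figure D4:**
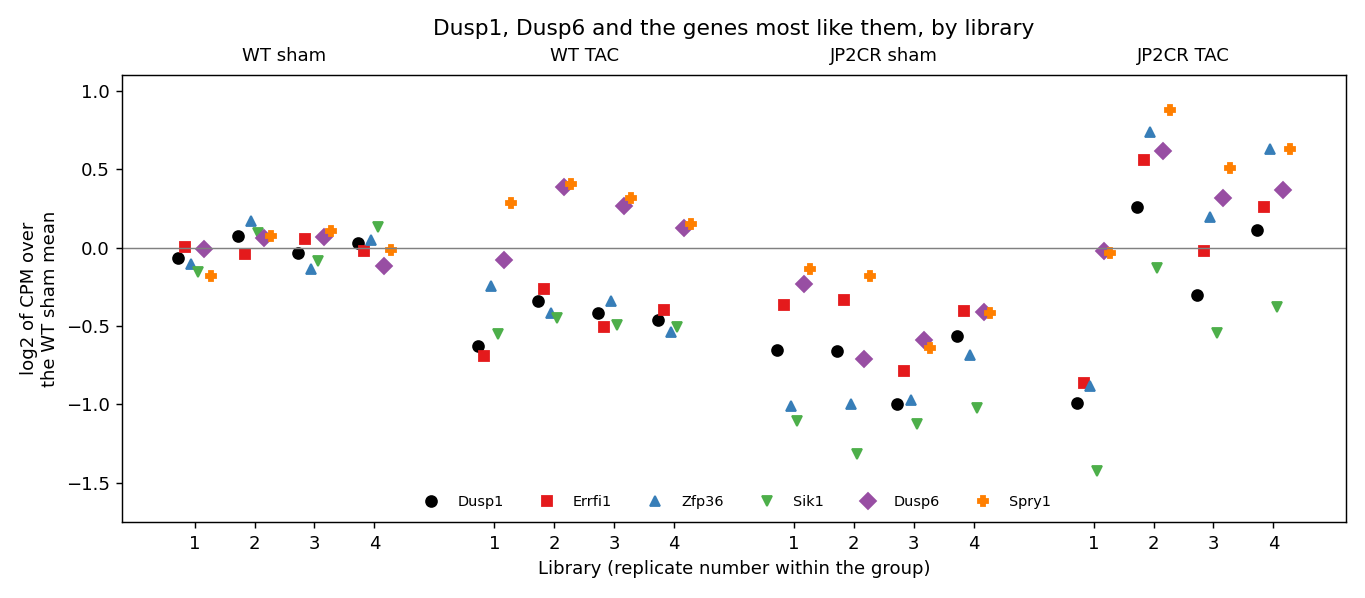
Log2 of CPM over the WT sham mean, by library, for Dusp1 and the 3 genes most like it (Errfi1, Zfp36, Sik1) and for Dusp6 and Spry1. In JP2CR TAC, replicate 1 is the lowest and replicate 2 the highest of the group for all 6 genes. Those beside Dusp1 and Dusp6 were picked for their correlation over these libraries, so likeness is built into the choice.

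The other called members had neighbours of different kinds. Dusp10 ran most closely with Arhgef19 (r = 0.97, 0.79 for deviations), the retinoid X receptor gene Rxrg (0.95, 0.73) and Agap1 (0.95, 0.70). Rxrg, like Dusp10, fell in WT TAC (-0.66 ± 0.11, adjusted p = 8.88e-05) and in JP2CR TAC (-0.87 ± 0.11, adjusted p = 6.6e-06). Dusp4 was most like the autophagy gene Becn1 (0.91, 0.63), Fam124a (0.91, 0.63) and Nol3, an inhibitor of cell death in heart muscle (0.91, 0.64). For Dusp7 the most like genes were Tns2, a tensin of focal adhesions (0.93, 0.91), Dedd2 (0.90, 0.90) and the glycoprotein hormone gene Stc2 (0.89, 0.77). Those of Dusp8 were the dynamin gene Dnm1 (0.93, 0.87), Bcr (0.93, 0.90) and Ltbp4, which binds latent TGF-beta (0.92, 0.85). Among the members themselves, the deviations of Dusp1 and Dusp6 had r = 0.73 over the 16 libraries, and those of Dusp2, at its low counts, and Dusp16 had r = -0.74.

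The rest of the pathway was followed in lists of genes by function, whose counts are to be read against the 41.9% of all tested genes called in WT TAC (21.1% higher, 20.8% lower) and the 41.5% in JP2CR TAC (20.7% in each direction). Of 11 other dual-specificity phosphatases tested, 3 rose and 3 fell in WT and 2 rose and 2 fell in JP2CR. Dusp3, a small phosphatase that acts on ERK and JNK, rose in both (0.47 ± 0.04 and 0.50 ± 0.04), and Dusp23 fell in both (-1.11 ± 0.13 and -0.80 ± 0.13). Of 12 MAP kinases, 2 rose and 4 fell in WT and 2 rose and 3 fell in JP2CR. Mapk14, the main p38 kinase of the heart, fell (-0.68 ± 0.06 and -0.61 ± 0.06), as did Mapk10, a JNK gene (-0.93 ± 0.13 and -0.33 ± 0.13), while the atypical kinase gene Mapk4 rose (1.6 ± 0.14 and 1.06 ± 0.14). Among 7 MAP2 kinases, 1 rose and 1 fell in WT and 2 rose and 1 fell in JP2CR, with a fall of the p38 activator Map2k6 in both (-1.12 ± 0.20 and -1.47 ± 0.20). Of 19 MAP3 kinases, 2 rose and 1 fell in WT and 2 rose and 2 fell in JP2CR, with a rise of Map3k14, which encodes a kinase of the NF-kB pathway, in both (0.79 ± 0.12 and 0.37 ± 0.12).

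Of 7 tested feedback inhibitors of ERK other than the phosphatases, 2 rose and 0 fell in WT, and 4 rose and 1 fell in JP2CR, Spred1 rising in both (0.53 ± 0.09 and 0.40 ± 0.09). Of 6 scaffolds, 3 rose and 2 fell in WT and 2 rose and 1 fell in JP2CR, with the JNK scaffold gene Spag9 higher in both (0.74 ± 0.08 and 0.69 ± 0.08). Among 11 MAPK-activated kinases, 4 rose and 2 fell in WT and 4 rose and 1 fell in JP2CR, and Rps6ka5, which encodes the nuclear kinase MSK1, fell in both (-1.21 ± 0.12 and -0.68 ± 0.12). A list of other phosphatases, not all of them established as acting on MAP kinases, gave 2 higher and 2 lower of 7 in WT. In JP2CR it gave 3 higher and 2 lower. Ppm1b rose in both (0.45 ± 0.07 and 0.30 ± 0.07). Ppm1k, which is not an established MAP kinase phosphatase, is among the falls in both (-0.79 ± 0.13 and -0.57 ± 0.13).

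Early response transcription factors, many of them encoded by ERK target genes, stood at 6 higher and 5 lower of 20 in WT and 12 higher and 1 lower in JP2CR, with median log2 fold changes of -0.09 and 0.77 against 0.00 over all tested genes, of which 41.9% and 41.5% were called. Myc rose in both genotypes (1.43 ± 0.14 and 1.6 ± 0.14), as did the ETS factor gene Etv5 (1.26 ± 0.10 and 1.06 ± 0.10). In sham, where 0.0961% of all tested genes were called, 2 of these 20 were lower in JP2CR than in WT, Fosl2 (-0.73 ± 0.10, adjusted p = 0.00356) and Nr4a2 (-1.35 ± 0.22, adjusted p = 0.0199). Of 16 other early response genes, 9 rose and 1 fell in WT and 13 rose and 1 fell in JP2CR, with medians of 0.65 and 0.59, and Phlda1 rose in both (0.98 ± 0.10 and 0.53 ± 0.10). Of these 16, Sik1 was also lower in JP2CR sham than in WT sham (-1.14 ± 0.17, adjusted p = 0.0122). After TAC, where 0.651% of all tested genes were called, JP2CR was lower than WT in Fosl2 (-0.46 ± 0.09, adjusted p = 0.0362). Phlda1 was lower there too (-0.44 ± 0.10, adjusted p = 0.0453). The interaction called none of these early response genes, and the difference between the genotypes' counts was not tested. All adjusted p-values of the lists come from the same fit over all 13522 tested genes.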

How the data were processed

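Ventricular polyadenylated RNA was sequenced from stranded libraries, per the labels' protocols. The authors deposited raw read counts, 1 whole number for each gene symbol and library, and these were tested. Per the submitters' processing notes the build was mm10, and the tools were FastQC 1.0.0, Picard 1.128, Cufflinks 2.2.1, bedtools 2.17.0, STAR 2.5.0b and DESeq2 1.6.3, with no roles stated. How and on which annotation reads were counted, and whether strand was used, is not given in the sources used here, so reads of overlapping genes on opposite strands may not be told apart. Besides the overlaps named above, Dusp5, Dusp8 and Dusp16 overlap AC137853.2, Gm32786 and Gm36328 on the opposite strand. Dusp1 also overlaps Gm8225 on the opposite strand and AC122252.4 and AC122252.1 on its own strand. The authors' own log2 fold changes and adjusted p-values, deposited in the same table, are quoted only where that table is named. In its sham comparison some fields hold text, and no value was read there for Dusp2 and Dusp26.

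The test was edgeR's quasi-likelihood F test (edgeR 4.0.16, R 4.3.3) on genes that filterByExpr kept (minimum count 10, by group). TMM scaling was used, and 1 model with 4 group means was fitted to all 16 libraries. Its 5 contrasts were adjusted by Benjamini-Hochberg over 13522 genes. The SE is the size of the log2 fold change divided by the square root of F, and CPM use TMM-scaled totals. Levels per kb use the exon lengths of GENCODE vM21 (GRCm38), promoters come from RefSeq, and log2 CPM for correlations used a prior count of 2 and a mean log2 CPM of at least 1. Alternatives were DESeq2 1.42.0, limma voom 3.58.1, other scaling factors, other filters, fits of the compared groups alone, a block for the replicate number, a threshold of 0.01, and omission of each library. In simulated counts of all 13522 genes, 67 genes were changed 1.5-fold, 67 2-fold and 66 4-fold. For TAC in WT, 77.6% of the 1.5-fold and 95.5% of the 2-fold changes were recovered, with 5 false calls. For the interaction these were 61.2% and 85.1%, with 7. The simulation held far fewer changes than the 41.9% of genes called for TAC in WT. Its rates describe simulated counts only. Recovery in these libraries, or at counts as low as those of Dusp2, was not tested.

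Libraries were grouped by their titles. No label names the animal behind a library, and p-values therefore measure the spread between libraries. All 10 members were eligible to be named in every comparison. From each function list up to 3 called genes with the smallest p were eligible to be named, and for each called member the 3 genes with the highest correlation. Not every eligible gene is reported here. The members and lists were chosen with earlier results of these data known. Figures were drawn with matplotlib 3.10.9.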

Additional observations from a re-analysis of the deposited data

Results flagged for a closer look

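Of 40 groups of 4 libraries (10 genes in 4 groups), 2 held a library whose gap to the nearest other library, divided by the group's range, was above Dixon's 95% critical value, and chance gives about 1 in 20 groups. Dusp4 was at 3.54 CPM in WT sham replicate 2, where the other WT sham libraries had 2.61 to 2.69 CPM. Dusp8 was at 68.6 CPM in JP2CR TAC replicate 1, where the other JP2CR TAC libraries had 72.7 to 73.3 CPM.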

How the results depend on the processing

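The 45 single-gene results gave 1242 values under the alternatives, of which 1174 kept their direction and side of the threshold, 28 lost a call, 11 gained one and 29 turned sign, all of the last in effects that were not called. The cause was not tested. Members called higher in WT TAC went from 2 to 1 at an adjusted p under 0.01 and without WT TAC replicate 3 and JP2CR TAC replicate 3, and ranged from 1 to 2 when a library was left out. Of all tested genes, 29.6% were called at that threshold and 35.8% without those libraries, against 41.9% in the main fit. Members called higher in the interaction went from 0 to 1 in DESeq2 and without the 3 libraries with Xist counts, and ranged from 0 to 1 when a library was left out. The share of all tested genes called rose too, from 0.118% to 0.976% in DESeq2 and 2.71% without the Xist libraries. Members called higher for JP2CR against WT in TAC went from 0 to 1 without the Xist libraries (0 to 1 over libraries left out). There the share of all tested genes called rose from 0.651% to 2.75%. Members called lower for JP2CR against WT in sham went from 0 to 1 when the sham groups were fitted alone, and ranged from 0 to 1 over libraries left out. That fit called 0.084% of all tested genes, against 0.0961% in the main fit. The fits without the Xist libraries, without the intermediate TAC libraries and without these 5 were chosen after seeing the data.

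Sign turns without the Xist libraries, and without these 5, respectively, were 0.13 and 0.13 for Dusp10 in sham, 0.00 and 0.00 for Dusp16 in sham, 0.08 and 0.02 for the Dusp16 interaction, 0.22 and 0.18 for Dusp7 under TAC in JP2CR, -0.14 and -0.14 for Dusp8 in sham, and 0.07 and 0.09 for the Dusp8 interaction. For the Dusp2 interaction it was -0.04 without the Xist libraries, for Dusp2 in TAC 0.22 without these 5, and for the Dusp4 interaction -0.07 without the intermediate libraries. With 1 library left out, sign-turning values ranged from -0.27 to 0.77 for the Dusp2 interaction, -0.05 to 0.99 for Dusp2 under TAC in JP2CR, -0.05 to 0.11 for Dusp16 under TAC in JP2CR, -0.11 to 0.05 for the Dusp16 interaction, -0.27 to 0.02 for Dusp7 in sham, -0.15 to 0.14 for Dusp7 under TAC in JP2CR, -0.08 to 0.07 for Dusp8 in sham, -0.13 to 0.02 for the Dusp8 interaction and -0.14 to 0.02 for Dusp10 in sham. Dusp1 in WT TAC lost its call in 15 of 28 alternatives (adjusted p 3.61e-05 to 0.105) and Dusp1 in JP2CR TAC in 7 of 28 (7.65e-05 to 0.248).

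The replicate numbers did not pair the libraries: of 24 same-numbered pairs, 1 had a correlation of deviations over 0.1, in a range of -0.19 to 0.11. With the replicate block, members called stayed at 2 higher and 3 lower in WT TAC and 3 higher and 1 lower in JP2CR TAC, and the Dusp1 interaction was 0.98 (adjusted p = 0.0998). Depth limits Dusp2 and Dusp26, at 1 to 16 and 3 to 15 counts.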
